A study of Mus musculus with 10 samples.

Results

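Cholesterol and fatty acid synthesis was followed in mouse embryonic stem cells through 29 named genes, out of 24015 genes in the count tables. The 29 comprise 18 enzymes of sterol synthesis, 5 genes of sterol sensing and transport, and 6 enzymes of fatty acid synthesis, each found by its symbol in every count table. The cells derive from the inner cell mass of the mouse blastocyst and hold a reporter gene for Wnt/β-catenin signalling. The sources used here do not give the cell line, its sex or whether it is 1 clone. Total RNA was sequenced from 10 libraries in 5 groups of 2, and all groups were grown with leukaemia inhibitory factor (LIF) on gelatin and split every 48 h. The groups were serum/LIF (serum), 2i/LIF for 5 to 6 passages (first 2i), 2i/LIF for more than 13 passages (long 2i), 2i/LIF for more than 13 passages followed by 6 passages in serum/LIF (serum return), and 2i/LIF for 13 passages, serum/LIF for 6 and 2i/LIF for 4 to 5 (second 2i). The 2i medium contained an inhibitor of the kinase GSK3 at 3 µM and one of ERK signalling, labelled PD, at 1 µM. Serum/LIF and 2i/LIF are compared as whole media. Effects of the inhibitors and of serum or other parts of the medium therefore cannot be told apart. Whether second 2i was grown from the sampled serum return cultures, and whether the 2 libraries of a group were separate cultures, is not stated in the labels, so the p-values reflect only library-to-library spread, which may be technical.

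Cholesterol is built from acetyl-CoA through mevalonate, squalene and lanosterol, and fatty acids are built from the same acetyl-CoA after its carboxylation to malonyl-CoA. Both routes are controlled by SREBP transcription factors, which Scap escorts from the endoplasmic reticulum for activation when membrane sterol is low and which Insig proteins retain when it is high. Srebf2 is known mainly for sterol genes and Srebf1 mainly for fatty acid genes. Serum carries lipoproteins from which cultured cells take up cholesterol and fatty acids.

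Gene counts totalled 16809070 to 27766338 per library. Levels are CPM, a gene's counts scaled to the TMM-adjusted total of tested genes in its library, given for libraries 1 and 2 of a group in that order or as mean ± SD (n = 2). Of the 29 genes 28 passed the filter on low counts, and every one of these 28 was at or above 9.61 CPM in every library. Hmgcs1, the synthase that makes HMG-CoA, was listed at 0 in all 10 libraries, so its level cannot be judged from these tables and it enters no count below. All 12 pluripotent cell markers examined, among them Pou5f1 and Nanog, were at or above 5 CPM in every group, whereas 10 markers of liver and fat summed to at most 1.05 CPM in any library. Of the 12, 3 (Zfp42, Utf1 and Tdgf1) were lower in every library from 2i than in any from serum. Tfcp2l1 was higher in the same way, and 8 overlapped. Of all genes tested 20.5% were lower and 19.9% higher in this way. The 16 primitive endoderm markers summed to 536 to 668 CPM in the serum libraries and 434 to 618 CPM in the libraries from 2i, and Afp and Ttr were at or below 0.107 CPM in every group mean. Of these 16 markers 7 were lower in every library from 2i than in any from serum, against 20.5% of all genes tested. Among the 7 were Sox7 and Col4a1 (35.3 and 127 CPM in serum, 1.26 and 0.835 CPM in first 2i), while 8 of the 16 overlapped. The remaining one, Sparc, the largest of the list, was higher in 2i (181 CPM in serum, 292 in first 2i and 459 in long 2i). The 12 fibroblast and feeder markers summed to 1150.3 to 2509.8 CPM, nearly all of it Fn1. The part of these markers in the results below was not tested. In bulk RNA, fewer cells expressing a gene and less RNA per cell cannot be told apart.

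How the pathway genes responded when serum cultures were moved to 2i was examined first. Across the pathway most genes were higher in 2i, led by the desaturase Scd1, the sterol enzymes Tm7sf2 and Msmo1 and the sterol carrier Stard4. Of the 28 genes 22 rose and 3 fell in first 2i against serum (edgeR, adjusted p under 0.05), while 35.1% of all genes tested rose and 34.9% fell. Of the 17 sterol enzymes 14 rose and 1 fell, with a median log2 fold change of 0.55 against 0.01 over all genes tested. At least 2-fold, 4 of the 28 genes rose and 0 fell, where 12.4% and 13.2% of all genes tested did so.

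Early in the sterol route, Acat2, which condenses acetyl-CoA, rose from 79.2 ± 10.1 to 116 ± 9.7 CPM. Idi1, the isopentenyl diphosphate isomerase, reached 11.8 and 10.5 CPM in serum, in first 2i 16.8 and 16.3, in long 2i 18.7 and 17.4, in serum return 9.61 and 9.96, with 16.5 and 15.1 in second 2i. All 6 Idi1 values from 2i lay above all 4 from serum, and the gene rose 1.48-fold in first 2i (log2 0.56 ± 0.11, SE; edgeR adjusted p = 7.89e-05). Fdps, which makes farnesyl diphosphate, rose 1.25-fold. Mvk, the mevalonate kinase, reached 38.7 and 37.0 CPM in serum, in first 2i 42.3 and 41.8, in long 2i 54.1 and 58.9, in serum return 29.6 and 33.0, with 57.0 and 62.8 in second 2i. Its values were highest in second 2i and lowest in serum return. Mvk and Mvd, the decarboxylase that follows in the pathway, did not pass in first 2i (log2 0.15, edgeR adjusted p = 0.0858, and log2 -0.06, edgeR adjusted p = 0.484). Mvd reached 62.4 and 67.4 CPM in serum, in first 2i 59.7 and 64.9, in long 2i 115 and 123, in serum return 46.3 and 51.0, with 75.2 and 84.6 in second 2i. Its first 2i values overlapped those of serum, and only the long 2i values exceeded 100 CPM.

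From squalene onward each of the 11 enzymes measured rose in first 2i. Sqle, the squalene epoxidase that carries out the first oxygenation of the route, reached 98.5 and 99.9 CPM in serum, in first 2i 183 and 177, in long 2i 189 and 177, in serum return 87.9 and 84.7, with 211 and 217 in second 2i. The serum and 2i libraries did not overlap, and Sqle rose 1.81-fold (log2 0.86 ± 0.05, SE; edgeR adjusted p = 9.79e-12). Fdft1, the squalene synthase, rose 1.74-fold and Lss, which cyclises squalene epoxide to lanosterol, 1.15-fold. After lanosterol, Msmo1, the sterol C4-methyl oxidase, reached 118 and 111 CPM in serum, in first 2i 243 and 236, in long 2i 276 and 261, in serum return 108 and 105, with 251 and 234 in second 2i. Its values fell into a low set from serum and a high set from 2i with no overlap, and it rose 2.09-fold (log2 1.06 ± 0.05, SE; edgeR adjusted p = 3.74e-13). Tm7sf2, a sterol C14 reductase, reached 12.5 and 13.4 CPM in serum, in first 2i 28.8 and 28.7, in long 2i 22.8 and 23.5, in serum return 12.2 and 14.5, with 35.8 and 35.5 in second 2i. It rose 2.22-fold in first 2i and was highest in second 2i. The isomerase Ebp rose 1.92-fold and the lanosterol demethylase Cyp51 1.64-fold in first 2i. Nsdhl, Sc5d, Dhcr7 and Hsd17b7, which remove methyl groups or set the double bonds of the sterol rings, rose 1.25-fold to 1.54-fold. The call for Lss was lost without replicate 1 of serum (edgeR adjusted p = 0.194), without replicate 2 of first 2i (edgeR adjusted p = 0.293) and in DESeq2 (adjusted p = 0.0504), and that for Hsd17b7 without replicate 2 of serum (edgeR adjusted p = 0.07).

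Among the regulators, Insig1, which holds the Scap and SREBP complex back and is itself a target of SREBP, reached 85.6 and 86.1 CPM in serum, in first 2i 132 and 128, in long 2i 182 and 185, in serum return 60.7 and 64.9, with 133 and 137 in second 2i. It was higher in each group from 2i than in either serum group, highest in long 2i, and rose 1.51-fold in first 2i (log2 0.60 ± 0.05, SE; edgeR adjusted p = 4.97e-09). Stard4, a soluble carrier that moves cholesterol between membranes, reached 26.0 and 26.8 CPM in serum, in first 2i 53.3 and 56.0, in long 2i 69.2 and 67.8, in serum return 25.6 and 24.7, with 50.9 and 48.1 in second 2i. Its serum values all lay within 3 CPM of each other, and it rose 2.07-fold in first 2i. Srebf1 reached 97.9 and 108 CPM in serum, in first 2i 167 and 175, in long 2i 182 and 202, in serum return 91.3 and 97.0, with 179 and 194 in second 2i. Srebf2 reached 245 and 266 CPM in serum, in first 2i 302 and 322, in long 2i 331 and 363, in serum return 218 and 231, with 305 and 340.3 in second 2i. Both transcription factor genes were higher in every library from 2i than in any from serum, and they rose 1.66-fold and 1.22-fold in first 2i (edgeR adjusted p = 3.25e-09 and 0.000378). Gene counts do not separate the transcript forms of Srebf1.

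**Figure D1:**
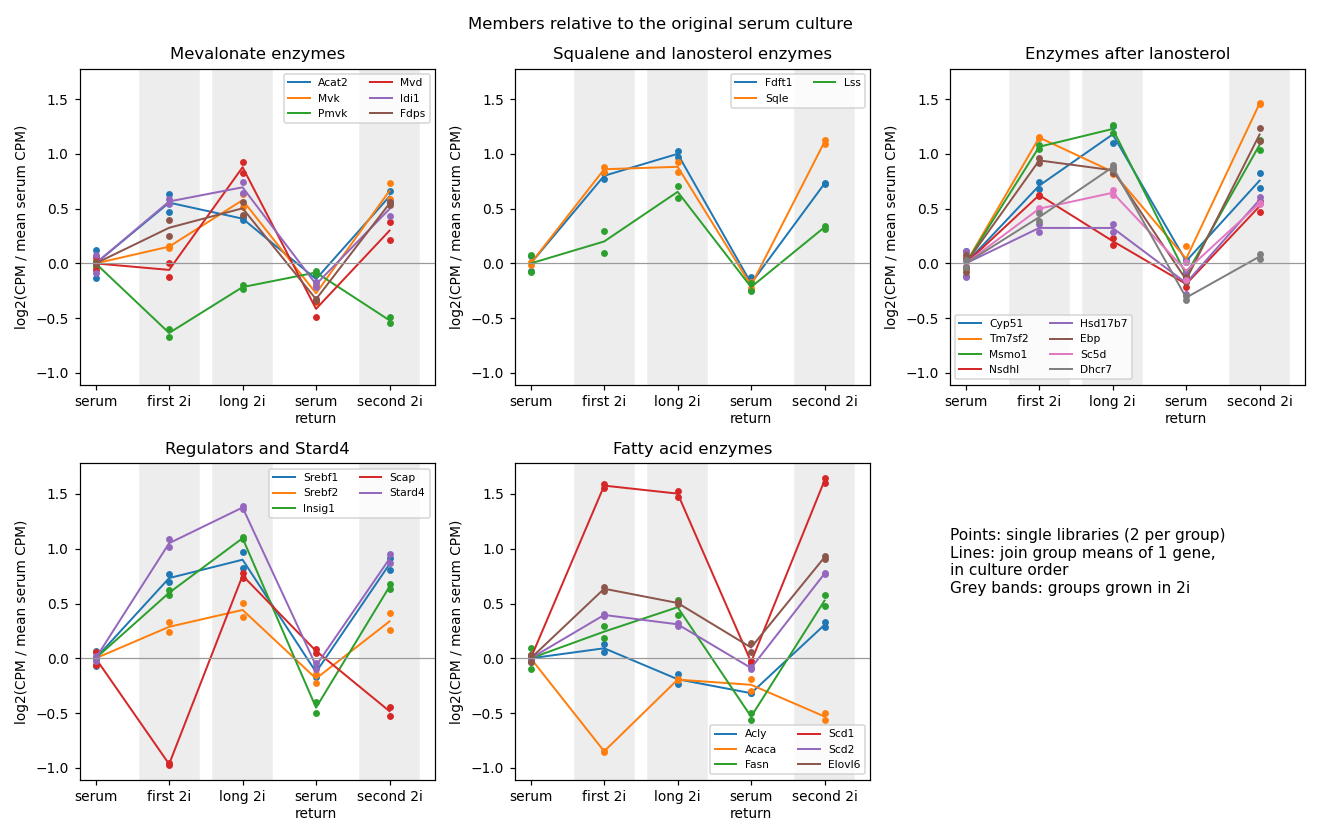
Level of each of the 28 measured genes as log2 of its CPM over its mean CPM in serum, by role, over the 5 culture groups in culture order; points are single libraries (2 per group), lines join group means and grey bands mark 2i. Most genes sit above 0 in the groups from 2i and near or below 0 in serum return, while Pmvk, Scap and Acaca dip in first and second 2i.

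The fatty acid enzymes divided. Scd1, a stearoyl-CoA desaturase that makes oleate, reached 219 and 215 CPM in serum, in first 2i 655 and 639, in long 2i 628 and 603, in serum return 214 and 210.1, with 680.1 and 658 in second 2i. The 4 serum values spanned 210.1 to 219 CPM and the 6 values from 2i all exceeded 600 CPM, and Scd1 rose 2.98-fold in first 2i (log2 1.58 ± 0.05, SE; edgeR adjusted p = 4.62e-17), the largest rise among the 28 genes in this comparison. Its paralogue Scd2 reached 1167 and 1161 CPM in serum, in first 2i 1521 and 1541, in long 2i 1457 and 1429.7, in serum return 1099 and 1090.2, with 1997 and 1981 in second 2i. It rose 1.32-fold in first 2i. Elovl6, which lengthens palmitate, reached 229 and 239 CPM in serum, in first 2i 359 and 368, in long 2i 329.9 and 334, in serum return 257 and 244, with 448 and 439 in second 2i. It rose 1.55-fold in first 2i. Both Scd2 and Elovl6 were highest in second 2i, with no overlap between serum and 2i libraries. Fasn, the fatty acid synthase, reached 510.0 and 582 CPM in serum, in first 2i 622 and 671, in long 2i 718 and 791, in serum return 369 and 386, with 761 and 813 in second 2i. Its first 2i libraries exceeded those of serum by a small margin (1.18-fold; edgeR adjusted p = 0.00253), and the call was lost without replicate 1 of serum (edgeR adjusted p = 0.0582). Acly, which splits citrate into the acetyl-CoA used by both routes, reached 651 and 678 CPM in serum, in first 2i 691 and 726, in long 2i 564 and 599.8, in serum return 533 and 533, with 809 and 834 in second 2i. It did not pass in first 2i (log2 0.09, edgeR adjusted p = 0.0932). Its lowest values were those of serum return and its highest those of second 2i.

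Against this direction, 3 genes fell in first 2i. Pmvk, the phosphomevalonate kinase, reached 156 and 151 CPM in serum, in first 2i 101 and 96.6, in long 2i 131 and 134, in serum return 143 and 147, with 109 and 105 in second 2i. It was the single gene of the 28 that was lower in all 6 libraries from 2i than in all 4 from serum, which held for 20.5% of all genes tested, and it fell 1.55-fold in first 2i (log2 -0.63 ± 0.05, SE; edgeR adjusted p = 1.21e-09). Scap reached 47.2 and 51.2 CPM in serum, in first 2i 25.4 and 25.0, in long 2i 81.8 and 84.1, in serum return 50.7 and 52.2, with 36.2 and 34.1 in second 2i. Thus the gene for the SREBP escort fell 1.95-fold in first 2i (edgeR adjusted p = 1.88e-10) but was highest of all in long 2i, above every serum library. Acaca, the acetyl-CoA carboxylase that makes malonyl-CoA, reached 49.2 and 51.0 CPM in serum, in first 2i 27.9 and 27.7, in long 2i 43.7 and 43.8, in serum return 44.0 and 40.7, with 35.4 and 33.9 in second 2i. It fell by 0.85 on the log2 scale in first 2i (edgeR adjusted p = 1.96e-09), and its long 2i values lay within the range of the serum return libraries. In the GENCODE M21 annotation 18.6% of the exon bases of Scap are shared with 5830462I19Rik on the opposite strand. The sources used here give no strand setting for the counting, so how reads from the shared bases were counted is not known.

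**Figure D2:**
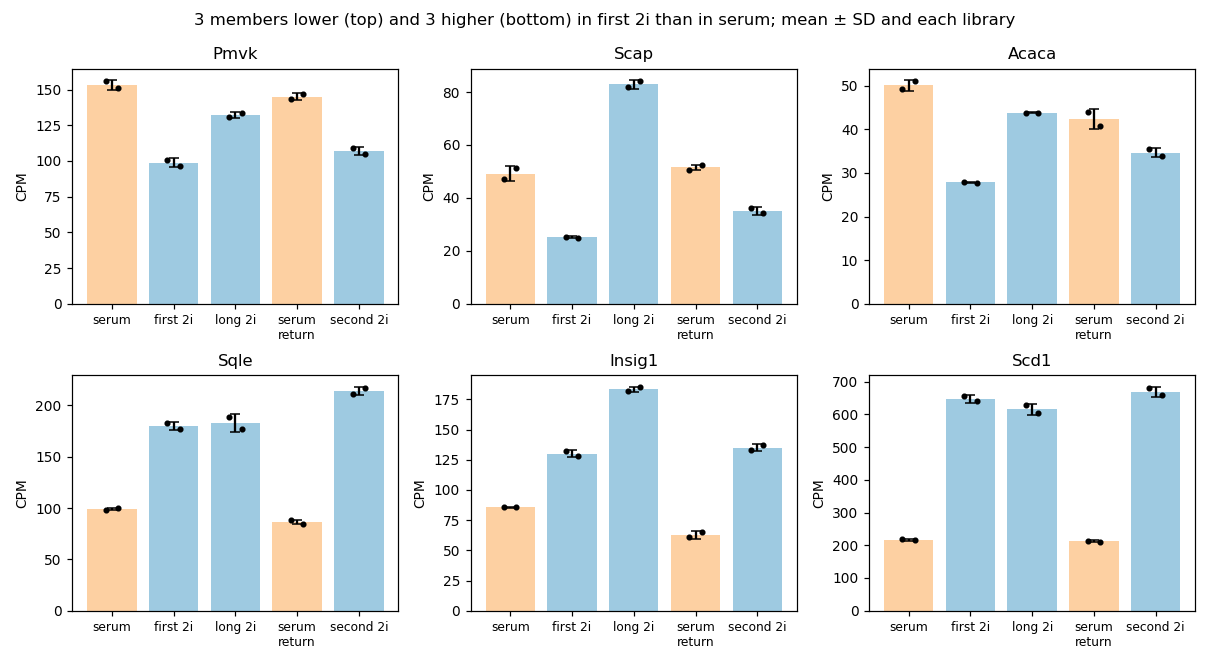
CPM of 6 genes in the 5 groups, with bars for the mean of 2 libraries, error bars for the SD and points for single libraries; orange bars are cultures in serum and blue bars cultures in 2i. Pmvk, Scap and Acaca (top) are lower in first 2i than in serum, and Scap is highest in long 2i at 83.0 ± 1.7 CPM, whereas Sqle, Insig1 and Scd1 (bottom) are higher in each group from 2i.

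What changed with further passages in the same medium was asked by comparing long with first 2i. The sterol side rose further in part while the fatty acid side was mixed. Of the 28 genes 16 rose and 4 fell (edgeR), where 30.4% of all genes tested rose and 30.8% fell. Of 17 sterol enzymes 9 rose and 2 fell (median log2 0.16), all 5 regulator and transport genes rose (median log2 0.33), and of 6 fatty acid enzymes 2 rose and 2 fell (median log2 -0.08). Scap showed the largest change, 3.30-fold higher (log2 1.72 ± 0.07, SE; edgeR adjusted p = 4.1e-14), and was the only one of the 28 to rise or fall at least 2-fold, where 6.57% and 10.3% of all genes tested did so. Mvd rose 1.92-fold, Acaca 1.57-fold, Insig1 1.41-fold, Cyp51 1.38-fold and Dhcr7, the last reductase of the route, 1.37-fold. Nsdhl and Tm7sf2 fell 1.34-fold and 1.24-fold, and Acly and Elovl6 1.22-fold and 1.09-fold. Sqle and Scd1 did not pass (log2 0.02 and -0.07; edgeR adjusted p = 0.738 and 0.167). Small changes were not stable here: when 1 library was left out, the calls for Fdps, Srebf1, Srebf2 and Fasn were lost without replicate 1 of first 2i (edgeR adjusted p = 0.292, 0.183, 0.268 and 0.0785) or replicate 2 of long 2i (edgeR adjusted p = 0.235, 0.319, 0.323 and 0.0874), and those for Fdft1, Msmo1 and Elovl6 without replicate 1 of long 2i (edgeR adjusted p = 0.051, 0.147 and 0.0757) or replicate 2 of first 2i (edgeR adjusted p = 0.0588, 0.0949 and 0.113). The Elovl6 call was also lost without replicate 2 of long 2i (edgeR adjusted p = 0.0585), and DESeq2 did not call Fdps or Srebf2 (adjusted p = 0.0678 and 0.0566).

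Long 2i was also set directly against the original serum culture. All 28 genes measured passed, 25 higher and 3 lower (edgeR), against 35.1% and 33.9% of all genes tested. The median log2 fold change was 0.69 for sterol enzymes and 0.39 for fatty acid enzymes. At least 2-fold, 5 rose and 0 fell, against 10.7% and 15.3% of all genes tested. The largest increases were those of Scd1 (2.83-fold), Stard4 (2.60-fold), Msmo1 (2.34-fold), Cyp51 (2.26-fold) and Insig1 (2.14-fold), and the 3 lower genes were Pmvk (1.16-fold), Acly (1.14-fold) and Acaca (1.14-fold). The Acaca call was lost without either library of long 2i (edgeR adjusted p = 0.0587 and 0.0686) and without replicate 2 of serum (edgeR adjusted p = 0.103), and the calls for Nsdhl and Hsd17b7 were lost without replicate 2 of serum (edgeR adjusted p = 0.0816 and 0.0751). Nsdhl was also lost without replicate 2 of long 2i (edgeR adjusted p = 0.0884) and in DESeq2 (adjusted p = 0.0548).

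Whether the levels came back on return to serum was examined next. Against long 2i, 26 of the 28 genes fell and 1 rose (edgeR), where 36% of all genes tested fell and 35.4% rose. Of the 17 sterol enzymes 16 fell (median log2 -0.87), as did all 5 regulator and transport genes (median log2 -1.03) and 5 of 6 fatty acid enzymes (median log2 -0.40). Insig1 fell 2.93-fold, Scd1 2.90-fold, Stard4 2.72-fold, Msmo1 2.51-fold and Mvd 2.46-fold, and in all 10 genes fell and 0 rose at least 2-fold, against 10.2% and 16.6% of all genes tested. Acaca did not pass (log2 -0.05, edgeR adjusted p = 0.58), and Pmvk was the gene that rose (log2 0.13, edgeR adjusted p = 0.029). The Pmvk call was lost when any 1 of the 4 libraries compared was left out (edgeR adjusted p = 0.0549 to 0.131). The call for Acly (log2 -0.13) was lost without replicate 1 or 2 of serum return (edgeR adjusted p = 0.0701 and 0.0642), without replicate 2 of long 2i (edgeR adjusted p = 0.188) and in a fit of only the groups compared (edgeR adjusted p = 0.0551).

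Several genes ended lower in serum return than in the original serum culture. Of the 28 genes 13 were lower and 0 higher (edgeR adjusted p under 0.05), against 14.5% and 16.5% of all genes tested, and 0 changed by 2-fold, against 0.956% lower and 2.27% higher of all genes tested. Fasn showed the largest difference, from 546 ± 51 to 378 ± 12 CPM (log2 -0.53 ± 0.06, SE; edgeR adjusted p = 9.68e-06), followed by Insig1 (log2 -0.45), Mvd (log2 -0.42), Fdps (log2 -0.33), Acly (log2 -0.32) and Dhcr7 (log2 -0.31). The calls for these 6 genes held when any 1 library was left out. Scd1 and Msmo1 did not pass (log2 -0.03 and -0.10; edgeR adjusted p = 0.626 and 0.167). The other 7 calls, for Mvk, Fdft1, Sqle, Lss, Nsdhl, Srebf2 and Acaca (log2 -0.28 to -0.18), were each lost in at least 2 of the 4 fits that left out 1 library of serum or serum return (edgeR adjusted p = 0.0532 to 0.28 in the fits that lost them). In those 4 fits 9 to 10 of the 28 genes were lower. The ribosomal RNA precursor Rn45s read 2496 and 15476 CPM in the 2 serum return libraries, and leaving it out of the library sizes changed no call of the 28 genes in any comparison.

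The second move into 2i was compared with serum return. The response again covered the pathway, and it was larger for many genes than the first had been. Of the 28 genes 25 rose and 3 fell (edgeR), against 32.3% and 33.3% of all genes tested, and 7 rose and 0 fell at least 2-fold, against 9.15% and 12.9%. The genes that fell were once more Pmvk (1.35-fold), Scap (1.46-fold) and Acaca (1.22-fold). Scd1 rose 3.15-fold, Tm7sf2 2.68-fold, Ebp 2.51-fold, Sqle 2.48-fold, Msmo1 2.27-fold, Insig1 2.15-fold and Fasn 2.08-fold. The 2 entries share no library, and 22 of the 28 genes were called higher in both, 3 were called lower in both, and none was called in opposite directions. Of all genes tested 23.3% were called higher in both, 23.8% lower in both and 4.39% in opposite directions. Every one of the 28 calls of the second entry held in each of the 4 fits that left out 1 of its libraries.

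**Figure D3:**
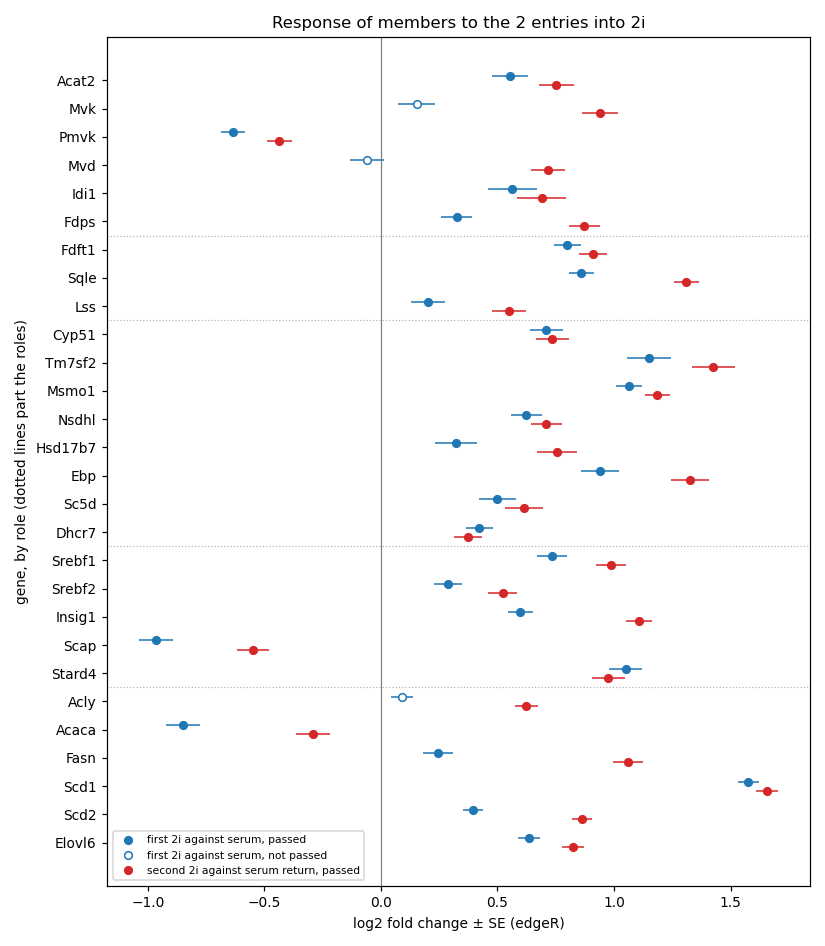
Log2 fold change of each gene in the first entry into 2i (blue, first 2i against serum) and in the second (red, second 2i against serum return), with bars of 1 SE from edgeR; filled points passed at an adjusted p under 0.05. Red points lie to the right of blue ones for most genes, with the widest gaps at Fasn, Mvk and Mvd, while the pairs for Scd1, Cyp51 and Stard4 nearly coincide.

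The difference between the 2 responses was tested directly. It was positive in 17 of the 28 genes and negative in 0 (edgeR adjusted p under 0.05), against 18.4% and 21% of all genes tested. No difference reached 2-fold, where 3.33% of all genes tested had one that large upward and 5.37% downward. Fasn differed most (log2 0.82 ± 0.09, SE; edgeR adjusted p = 2.42e-06), followed by Mvk (log2 0.79 ± 0.11) and Mvd (log2 0.78 ± 0.10), neither of which had passed in the first entry. Among fatty acid enzymes 5 of 6 passed (median log2 0.50), among sterol enzymes 8 of 17 (median log2 0.20) and among regulator and transport genes 4 of 5. For Scap, Acaca and Pmvk the positive difference meant a smaller fall. Cyp51, Msmo1, Stard4 and Scd1 did not pass (log2 0.03, 0.12, -0.08 and 0.08). Leaving out 1 library at a time gave 12 to 16 genes, and the calls for Pmvk, Lss, Hsd17b7, Ebp, Srebf1, Srebf2 and Elovl6 were each lost in at least 1 of these fits (edgeR adjusted p = 0.0523 to 0.226 in the fits that lost them). By construction the difference includes the starting levels, and Fasn, Mvd, Mvk, Insig1, Fdps and Acly were among the genes lower in serum return than in serum.

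In end level, second 2i exceeded first 2i for 13 of the 28 genes and fell below it for 1 (edgeR), against 18.1% and 19.6% of all genes tested. No level differed by 2-fold, against 3.14% higher and 3.49% lower of all genes tested. Among the fatty acid enzymes 5 of 6 were higher, with Scd2 at 1989 ± 12 against 1531 ± 14 CPM and Elovl6 at 443 ± 6.1 against 363 ± 6.2 CPM. Mvk was 1.42-fold higher, Scap 1.40-fold and Mvd 1.28-fold, and Dhcr7 was the gene that was lower (64.4 ± 1.4 against 82.7 ± 2.7 CPM; edgeR adjusted p = 7.9e-05). The calls for Hsd17b7 (log2 0.26) and Ebp (log2 0.24) were lost without replicate 1 of first 2i (edgeR adjusted p = 0.0536 and 0.118) or replicate 2 of second 2i (edgeR adjusted p = 0.0609 and 0.191), as was that for Fdps (log2 0.22; edgeR adjusted p = 0.163 and 0.0826). Hsd17b7 was also lost without replicate 2 of first 2i or replicate 1 of second 2i (edgeR adjusted p = 0.129 and 0.107).

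Sterol and fatty acid enzymes were then set side by side. In each library the log2 CPM of a gene was taken relative to its mean in serum, and the median was taken over the genes of a route. For the 17 sterol enzymes the libraries of first 2i had medians of 0.59 and 0.50, those of long 2i 0.74 and 0.71, those of serum return -0.16 and -0.19 and those of second 2i 0.59 and 0.56. For the 6 fatty acid enzymes the medians were 0.29 and 0.35, 0.36 and 0.41, -0.13 and -0.20 and 0.63 and 0.67 in the same order. The sterol median was thus the higher of the 2 in first and long 2i and the lower in second 2i, with no overlap between the libraries of the 2 routes in these 3 groups, whereas in serum return they overlapped. The lead in first 2i did not cover the 6 mevalonate enzymes from Acat2 to Fdps, whose medians there were 0.21 and 0.27. Those of the squalene and lanosterol enzymes were 0.83 and 0.77, and those of the enzymes after lanosterol 0.69 and 0.65. These medians are a description of chosen genes and carry no test. The group of highest mean differed as well: it was long 2i for all 5 regulator and transport genes and for 8 of 17 sterol enzymes, and second 2i for 5 of 6 fatty acid enzymes. Within each route genes varied more than the routes differed, as log2 fold changes in first 2i ran from -0.63 for Pmvk to 1.15 for Tm7sf2 among sterol enzymes, and from -0.85 for Acaca to 1.58 for Scd1 among fatty acid enzymes.

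In all, 15 of 17 sterol enzymes, 4 of 5 regulator and transport genes and 4 of 6 fatty acid enzymes had all 6 libraries from 2i above all 4 from serum, together 23 of 28 genes, where 19.9% of all genes tested did so. The exceptions were Mvd, Pmvk, Scap, Acly and Acaca. The 2 desaturase genes differed in their balance. Per kilobase of exon, Scd1 made up 17.5% and 17.3% of the summed CPM of Scd1 and Scd2 in the serum libraries. Its share was 32.7% and 31.9% in first 2i, and long 2i gave 32.7% and 32.3%. The serum return libraries had shares of 18% and 17.9%, and those of second 2i 27.8% and 27.3%, with no overlap between serum and 2i libraries. The tables list reads that aligned to more than 1 place in a category outside the genes, so values of such paralogues are uncertain.

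**Figure D4:**
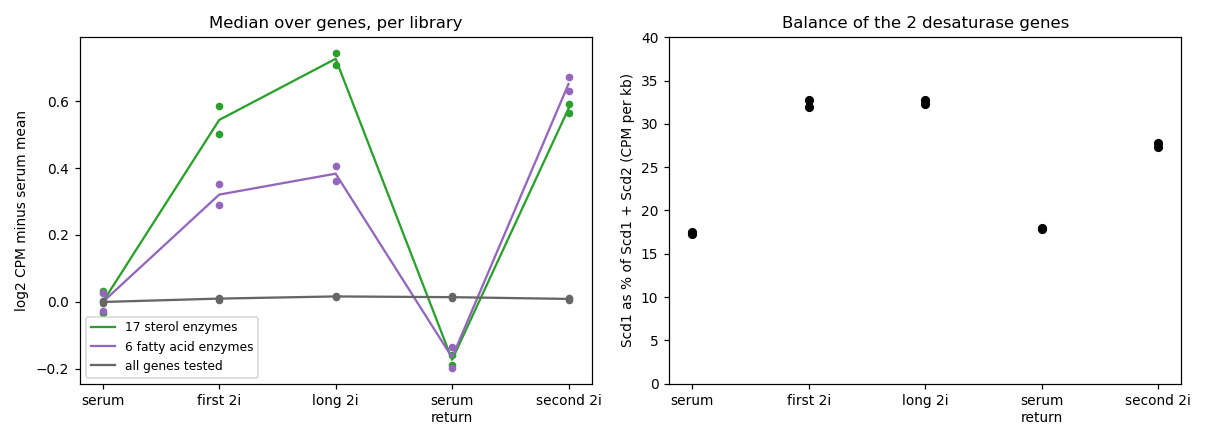
Left, the median over 17 sterol enzymes, 6 fatty acid enzymes and all genes tested of log2 CPM minus the mean in serum, with points for single libraries and lines through group means. Right, Scd1 as a percentage of Scd1 plus Scd2 by CPM per kilobase of exon, with 1 point per library; the sterol median peaks in long 2i, the fatty acid median in second 2i, and the Scd1 share is near 17 to 18% in serum and 27 to 33% in 2i.

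The promoters of these genes were also searched for letters known from SREBP-driven promoters. SREBP factors are known to act together with NF-Y, which binds the CCAAT box. RefSeq promoter windows (GRCm38.p6, the 250 bases before a gene start) were found for 23 of the 29 genes. A CCAAT box, as CCAAT or ATTGG so that both strands are covered, was present in 18 of these 23 genes (78.3%), counting a gene once if any of its windows held it, and in 37.5% of all 27025 genes in the table (33.8% of all 32851 windows). At least 2 boxes in 1 window were found in 10 of the 23 genes and in 11.5% of all genes. Dhcr7 enters both counts only through a window whose start site lies 7047 bases inside the gene in GENCODE M21. Its other windows hold none. The share among only the genes tested for expression was not counted. The core TCACNCCAC of the sterol regulatory element, on either strand, was found in 1.22% of all genes. Of the 23 genes Hmgcs1 alone held it, the gene listed at 0 in every library. The E-box CACGTG, its own reverse complement, was found in 5 of the 23 and in 6.86% of all genes. The genes without a CCAAT box in these windows were Acat2, Acly, Elovl6, Scap and Acaca, and the Acaca window starts within the gene in GENCODE M21 and is not shown. These matches describe letters in short windows, and members of the set were not chosen at random. A part of SREBP or NF-Y in the changes was not tested. To show the arrangement, the 180 bases before the start are given for Mvk, Mvd, Ebp, Fasn and Scap, chosen as examples. They read 5′ to 3′ on the gene's strand. The first 4 have boxes and Scap has none. Any link between a box and the direction of change was not tested. Capitals mark CCAAT or ATTGG, and in Fasn a pair of them overlaps.
Mvk, chr5:114444089-114444268, + strand: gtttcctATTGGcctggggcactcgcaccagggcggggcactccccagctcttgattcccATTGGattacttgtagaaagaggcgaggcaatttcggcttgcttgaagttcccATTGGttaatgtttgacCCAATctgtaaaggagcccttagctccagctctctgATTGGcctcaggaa
Mvd, chr8:122443423-122443602, - strand: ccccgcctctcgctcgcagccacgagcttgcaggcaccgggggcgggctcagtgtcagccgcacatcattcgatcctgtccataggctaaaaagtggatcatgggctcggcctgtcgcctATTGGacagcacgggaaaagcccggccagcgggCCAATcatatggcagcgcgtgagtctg
Ebp, chrX:8193513-8193692, - strand: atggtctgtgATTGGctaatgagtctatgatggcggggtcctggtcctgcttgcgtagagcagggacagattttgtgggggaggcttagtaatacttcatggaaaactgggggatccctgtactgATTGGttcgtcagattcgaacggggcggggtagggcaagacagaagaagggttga
Fasn, chr11:120824548-120824727, - strand: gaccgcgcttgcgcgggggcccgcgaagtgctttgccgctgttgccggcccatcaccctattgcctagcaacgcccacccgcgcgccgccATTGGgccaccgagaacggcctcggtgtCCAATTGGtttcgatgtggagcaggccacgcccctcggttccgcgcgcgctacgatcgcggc
Scap, chr9:110333108-110333287, + strand: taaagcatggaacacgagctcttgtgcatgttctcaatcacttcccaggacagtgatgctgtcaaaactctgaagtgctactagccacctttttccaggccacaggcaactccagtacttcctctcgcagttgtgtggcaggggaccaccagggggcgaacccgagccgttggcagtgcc

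Mvk holds 5 boxes in this stretch, Fasn 3, and Mvd and Ebp 2 each. Pmvk, which acts between Mvk and Mvd in the route and fell in both entries, has 1 box in the earlier of its 2 windows and none in the other. Acat2, Acly and Elovl6 rose in the second entry and have none, and Acat2 and Elovl6 had also risen in the first. The presence of a box in these windows and the direction of change thus did not coincide for every gene.

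Genes around the pathway were counted by lists. In first 2i 35.1% of all genes tested rose and 34.9% fell. Of 7 genes of sterol-activated LXR receptors and sterol efflux 4 rose and 3 fell in first 2i (median log2 0.29). Abca1, which exports cholesterol to lipoproteins, fell 4.52-fold from 182 ± 14 to 40.2 ± 1.9 CPM (edgeR adjusted p = 6.01e-17), while Mylip, a ubiquitin ligase for lipoprotein receptors, rose 7.48-fold from 2.06 ± 0.26 to 15.5 ± 1.5 CPM. On return to serum Abca1 rose 2.12-fold and Mylip fell 2.83-fold, and in the second entry Abca1 fell 4.16-fold and Mylip rose 3.18-fold. Of 15 further genes of sterol processing, transport and control 5 rose and 5 fell in first 2i (median log2 0.05). Soat1, which esterifies cholesterol for storage, fell 2.57-fold from 35.0 ± 1.9 to 13.6 ± 0.59 CPM, fell a further 2.68-fold in long 2i, and rose 7.02-fold on return to serum. Npc2, which moves cholesterol out of lysosomes, rose 2.61-fold from 154 ± 10.2 to 402 ± 9.0 CPM. Nfya, a subunit of NF-Y, rose 1.77-fold in the first entry and 1.67-fold in the second. The other subunits, Nfyb and Nfyc, are in the same list but were not among its largest called changes in these entries.

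In the isoprenoid branch, which draws on farnesyl diphosphate, 3 of 9 genes rose and 2 fell in first 2i (median log2 0.12), with Fntb, the farnesyltransferase β subunit, up 1.70-fold and Icmt, which methylates prenylated proteins, down 1.73-fold. Of 22 other lipogenic genes 10 rose and 8 fell (median log2 -0.05), against 35.1% and 34.9% of all genes tested. Me1, the malic enzyme that supplies NADPH, rose 3.41-fold from 14.3 ± 1.2 to 48.9 ± 3.5 CPM, the phosphatidate phosphatase Lpin1 2.24-fold and the desaturase Fads2 1.70-fold, whereas Dgat2, which makes triglyceride, fell from 5.49 ± 0.55 to 0.756 ± 0.52 CPM. In the second entry 7 of the 22 rose and 3 fell, against 32.3% and 33.3% of all genes tested. Me1, Fads2, Aacs and Slc25a1 were up 1.89-fold to 2.02-fold. Of 19 genes of fatty acid oxidation, the opposing pathway, 12 rose and 2 fell in first 2i (median log2 0.41), with the largest rises in the dehydrogenase Acadm (2.13-fold) and the carnitine palmitoyltransferase Cpt1c (2.11-fold). In long against first 2i 5 rose and 11 fell (median log2 -0.47), against 30.4% and 30.8% of all genes tested. Decr1 was down 2.90-fold, Acadl 2.57-fold and Cpt1a, the entry enzyme of mitochondrial oxidation, 1.97-fold. On return to serum against long 2i, 9 oxidation genes rose and 6 fell, 10 other lipogenic genes rose and 10 fell, 4 of the 15 further sterol genes rose and 8 fell, 1 of the 9 isoprenoid genes rose and 5 fell, and 2 of the LXR and efflux genes rose and 3 fell. Of all genes tested 35.4% rose and 36% fell on return to serum against long 2i. Like all genes tested, each of these lists held genes called in both directions. All counts of these lists are from edgeR at an adjusted p under 0.05 and are read against the shares of all genes tested given above.

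Per kilobase of exon (GENCODE M21) and averaged over the 10 libraries, Scd2 was the most abundant of the 28 genes at 265 CPM per kilobase, followed by Acly at 144, Scd1 at 97.7 and Msmo1 at 95.0. Acaca and Idi1 were the lowest at 4.17 and 4.71. In that annotation 77.4% of the exon bases of Fdps are shared with Gm43738, 20.9% of those of Fdft1 with Ctsb on the opposite strand and 10.7% of those of Idi1 with Gm48574, which makes the counts of these genes less certain. The range of group means, as highest over lowest, ran from 1.54-fold for Acly to 3.30-fold for Scap and 3.16-fold for Scd1.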

How the data were processed

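Total RNA of mouse embryonic stem cells was sequenced by the authors in 10 libraries. CASAVA 1.8.2, TopHat2 2.0.4, HTSeq 0.5.4p5, DESeq2 and the mm9 build are named in the submitters' processing notes; the sources used here give no annotation, strand setting or layout of the reads. The authors deposited raw counts per gene, 1 table per library, with 24015 genes and 5 summary categories, per the files themselves. These categories stay out of library sizes: 33.4 to 36.5% of entries were not unique, 10.3 to 11.8% in no feature and 0.687 to 0.730% ambiguous. Totals in genes were 16809070 to 27766338. With the 50 genes that differed most between the replicates of a group left out, replicates differed by 2.90 to 4.07 times the counting variance. The spread between libraries thus exceeds counting error.

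From these counts, edgeR 4.0.16 (R 4.3.3) was run on all 10 libraries: filterByExpr by group (minimum count 10, minimum total 15; 14220 genes tested), TMM, a robust quasi-likelihood fit on group alone with 5 residual degrees of freedom, 8 two-sided contrasts, each with Benjamini-Hochberg adjustment over all genes tested, and a call at an adjusted p under 0.05. Groups come from the sample labels, and replicates 1 and 2 are the title series LEM and MLE, whose meaning is not stated. Alternatives were RLE scaling, no TMM, no filter, DESeq2 1.42.0, the replicate block, Rn45s left out, only the groups compared, a 2-fold minimum and each library left out. Promoter windows are RefSeq's (GRCm38.p6) and exon lengths GENCODE M21's, a different build from the mapping, so no position was joined to the counts.

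The genes and lists were chosen with earlier results of these data known. All 29 genes are named, with every library's value for the ones with the largest changes in each role; from the other lists up to 4 genes per comparison with the largest called changes and at least 5 CPM could be named, and those shown are among them. Some genes that this rule could name are not reported here by name.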

Additional observations from a re-analysis of the deposited data

Results flagged for a closer look

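For 17 of the 28 measured genes the response to the second entry into 2i differed from the response to the first when the difference itself was tested (edgeR, adjusted p under 0.05), and all 17 differences were positive, where 18.4% of all genes tested had a positive and 21% a negative difference. On the log2 scale the differences among sterol enzymes were 0.79 for Mvk, 0.78 for Mvd, 0.55 for Fdps, 0.45 for Sqle, 0.43 for Hsd17b7, 0.39 for Ebp, 0.35 for Lss and 0.20 for Pmvk. Among regulators they were 0.51 for Insig1, 0.42 for Scap, 0.25 for Srebf1 and 0.23 for Srebf2. Among fatty acid enzymes they were 0.82 for Fasn, 0.56 for Acaca, 0.53 for Acly, 0.47 for Scd2 and 0.19 for Elovl6. For Pmvk, Scap and Acaca, which fell in both entries, the second fall was the smaller, and the other 14 rose in the second entry by more than their first change, which for Mvk, Mvd and Acly had not passed the test. The difference includes the starting levels, and in end level Insig1, Srebf1, Srebf2 and Lss did not pass in second against first 2i. The calls for Pmvk, Lss, Hsd17b7, Ebp, Srebf1, Srebf2 and Elovl6 were not stable when 1 library was left out. Groups of 2 libraries were too small for a search for single libraries far from the rest.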

How the results depend on the processing

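Of 224 results (28 genes in 8 comparisons) 174 kept their direction and side of the threshold under every alternative other than the 2-fold minimum, and no called change reversed. Of the 172 called, 140 were kept under each of these. RLE scaling and leaving out Rn45s changed no call. The 2-fold minimum removed most calls: 4 genes were higher and 0 lower in first 2i against serum, 1 and 0 in long against first 2i, 5 and 0 in long 2i against serum, 0 higher and 10 lower in serum return against long 2i, 0 lower in serum return against serum, 7 and 0 in second 2i against serum return, 0 and 0 in second against first 2i, and 0 with a larger second response. A replicate block, with the title series as a term, gave 7 lower genes in long against first 2i (4 without it), 1 higher in serum return against serum (0 without it) and 2 lower in second against first 2i (1 without it). The block also gave 24 higher genes in first 2i against serum (22 without it), 18 lower in serum return against serum (13), 16 higher in second against first 2i (13) and 19 with a larger second response (17). It removed no call and added 17, among them Mvk and Acly in first 2i against serum (edgeR adjusted p = 0.0257 and 0.00399), Scd1 in long against first 2i (0.0204), and Msmo1 in serum return against serum (0.0232) and in the difference between entries (0.0461). Deviations of same-numbered libraries correlated at 0.0994 to 0.168 over the 10 pairs of groups. All were above 0, a hint from the data that the numbers may pair the libraries, but 1 was under 0.1 and the labels state no pairing, so the fit without the block was kept.

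Leaving out 1 library gave 20 to 22 higher genes in first 2i against serum, 12 to 14 higher and 3 to 4 lower in long against first 2i, 23 to 25 higher and 2 to 3 lower in long 2i against serum, 0 higher and 25 to 26 lower in serum return against long 2i, 9 to 10 lower in serum return against serum, 10 to 13 higher in second against first 2i, and 12 to 16 with a larger second response. A group left with 1 library was assumed to vary like the others. The median log2 fold change of sterol minus that of fatty acid enzymes then ranged from 0.12 to 0.38 in first 2i against serum, 0.23 to 0.27 in long against first 2i, 0.30 to 0.43 in long 2i against serum, -0.54 to -0.41 in serum return against long 2i, -0.074 to 0.068 in serum return against serum, -0.10 to -0.05 in second 2i against serum return, -0.23 to -0.11 in second against first 2i and -0.35 to -0.22 for the difference between entries. With Acly left out it was 0.22 in long 2i against serum and -0.092 in serum return against serum. The sign of the serum return difference depended on the library left out. Depth limits Idi1 most among the 28 genes, at about 10 CPM in serum.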
